A study of Mus musculus with 4 samples.

Results

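The genes described here encode glycosyltransferases, the enzymes that build the sugar chains of mucins and of the epithelial cell surface. They were chosen by symbol: every probe counted whose gene symbol began with B3gal, B3gnt, B4gal, Galnt, Gcnt, St3gal, St6gal, St8sia or Fut. The rule took 102 of 25697 probes and 68 of 16593 genes with a symbol, in 9 families, and 32 of the 68 genes had a probe above background on enough arrays to be compared. A few of them act on other substrates than mucins: Fut8 modifies N-glycans, B4galt7 and B3galt6 build the linker of proteoglycans, and B3galt4, B3gnt5 and B4galt5 act on glycolipids. RNA of intestinal epithelial cells from C57BL/6 mice was measured on 4 single-colour Illumina bead arrays. One set of samples came from Ifnar1-/- mice (2 arrays) and the other from Ifnar1+/+ mice (2 arrays), and both carried the gut deletion of Csnk1a1 as well, so that wild type in the sample titles refers to Ifnar1 alone. Ifnar1 encodes a chain of the type I interferon receptor and Csnk1a1 a kinase whose loss stabilizes beta-catenin. The groups follow the sample titles and genotype labels, because the growth protocol writes Ifnar1+/+ for both crosses. In both groups the deletion was made with floxed Csnk1a1 and a Cre recombinase driven by the villin promoter, active in gut epithelium, after tamoxifen at 120 mg/kg on 2 days, and cells were collected 5 days after the last injection. Mice were genotyped at 4 weeks, and no source here states their age at collection. No label ties a sample to its own mouse, so p-values measure only how far these samples spread, and that spread may be technical.

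Mucin-type sugar chains start when a polypeptide N-acetylgalactosaminyltransferase (Galnt) attaches a sugar to serine or threonine in the Golgi. Other enzymes then make a core, extend it with galactose and N-acetylglucosamine, and may branch it, and sialyltransferases and fucosyltransferases usually cap the ends. In the gut these caps decide much of what microbes and lectins can bind, and several of the enzymes differ along the gut and between crypt and villus.

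The arrays had raw median signals of 151.3 and 157.8 in the Ifnar1-/- group and 143.5 and 145.3 in the Ifnar1+/+ group, and 11234 to 11954 probes were detected on each. The probes for Ifnar1 and Csnk1a1 stayed at background on all 4 arrays (raw signals of 119.3 to 135 and of 122.7 to 136.5), so neither checks the genotype labels. A single chip (1) carried the 4 arrays, with the groups at different positions, so position and genotype cannot be told apart. The labels name the tissue colon, whereas the protocol names the middle of the small intestine. Of 13 small intestine markers with a probe, 9 were detected on every array, and of 14 colon markers 4 were; Fabp1, Fabp2 and Slc10a2 among the first and Aqp8, Slc26a3 and Hoxb13 among the second were detected on none. Over all 8442 genes tested, the Ifnar1-/- arrays differed from each other by more than 1 log2 unit in 7.38% and the Ifnar1+/+ arrays in 1.69%.

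No glycosyltransferase gene passed the test. limma called 0 of the 32 at an adjusted p under 0.05, against 0% of all 8442 genes, and the smallest adjusted p among the 32 was 0.401. Before adjustment 6 of the 32 had a p under 0.05 (18.8%, against 9.52% of all genes): 5 lower genes (15.6% of the 32, against 5.27% of all genes) and 1 higher gene (3.12%, against 4.25%). The excess depended on the setting: without background correction and with the deposited values 4 of the 32 had such a p (12.5%, against 10.3% of all genes). It was 9 (28.1%, against 26.6%) without Ifnar1-/- array 2, and 4 (12.5%, against 3.97%), 2 of them lower, without Ifnar1+/+ array 2. With an offset of 50 the split was 4 lower and 2 higher, as it was with median scaling. The groups did not overlap for 15 genes (46.9%, against 43.4% of all genes). Both Ifnar1-/- arrays lay below both Ifnar1+/+ arrays for 12 genes (37.5%, against 19.5% of all genes) and above them for 3 (9.38%, against 23.9%). An absolute difference of at least 0.5 log2 units was seen for 15 of the 32 (46.9%, against 20.4%). That count also depended on the setting. Without background correction B3galnt1 (-0.40), B3gnt7 (-0.41), B3gnt5 (0.32) and Fut8 (0.45), among others, fell below 0.5. St3gal4 (-0.97) and St3gal3 (0.64) were among those that did not. The share over all genes was not counted in that setting. The median difference was -0.08 over the 32 genes and 0.03 over all genes (log2, Ifnar1-/- minus Ifnar1+/+), and 18 of the 32 had a lower mean (56.2%, against 47% of all genes) and 14 a higher one (43.8%, against 53%). The 3 genes with the smallest p, St3gal3, B3galnt1 and St3gal4, each differed by more than 1 log2 unit, 1 of them upward. In a bulk preparation fewer cells of a type and less RNA per cell cannot be told apart.

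**Figure D1:**
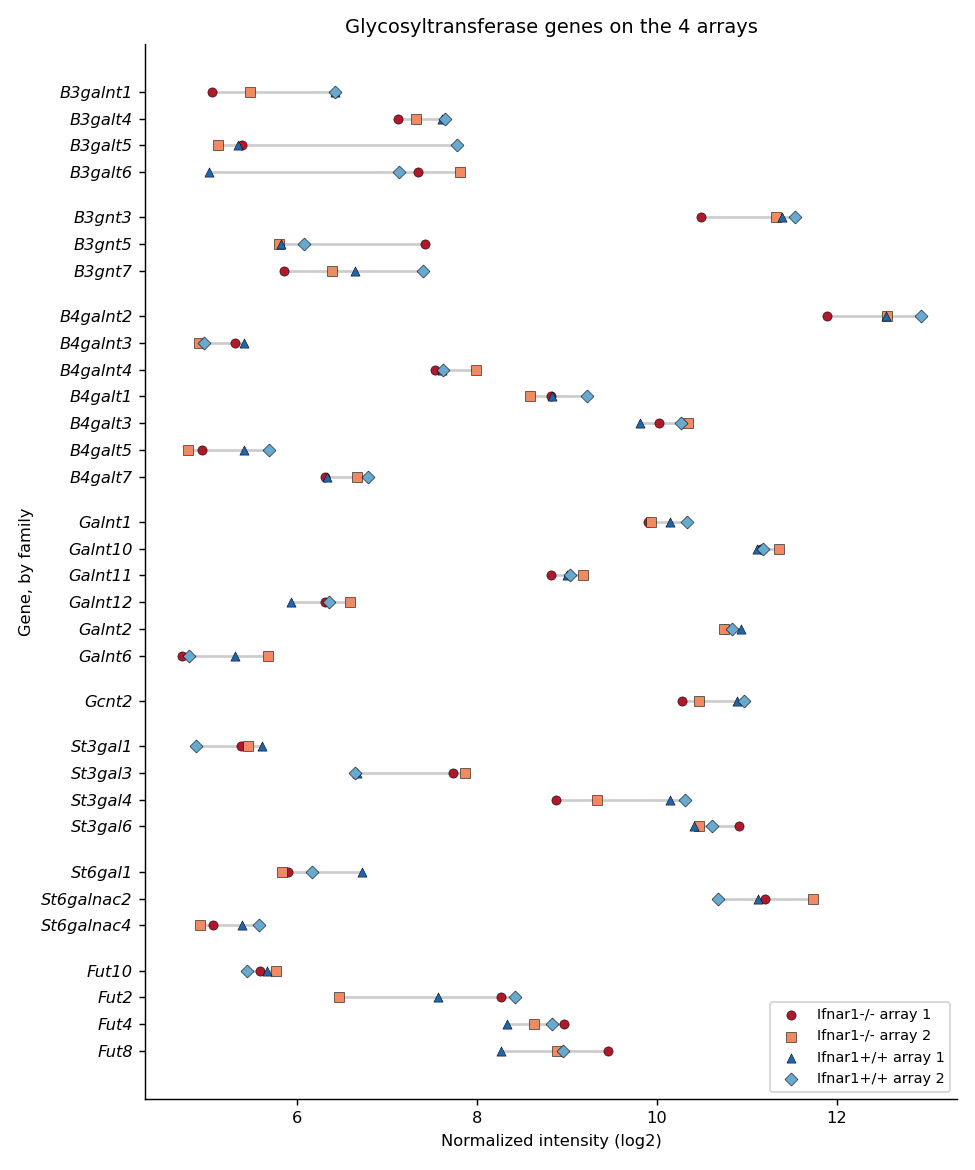
Normalized intensity (log2, horizontal axis) of each of the 32 tested glycosyltransferase genes on each array, grouped by family down the page; a point is 1 array and the grey line spans the 4 arrays. The arrays of each group lie closer together than the groups for St3gal3 and St3gal4, while B3galt5, B3galt6, B3gnt5 and Fut2 have 1 array far from its partner.

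**Figure D2:**
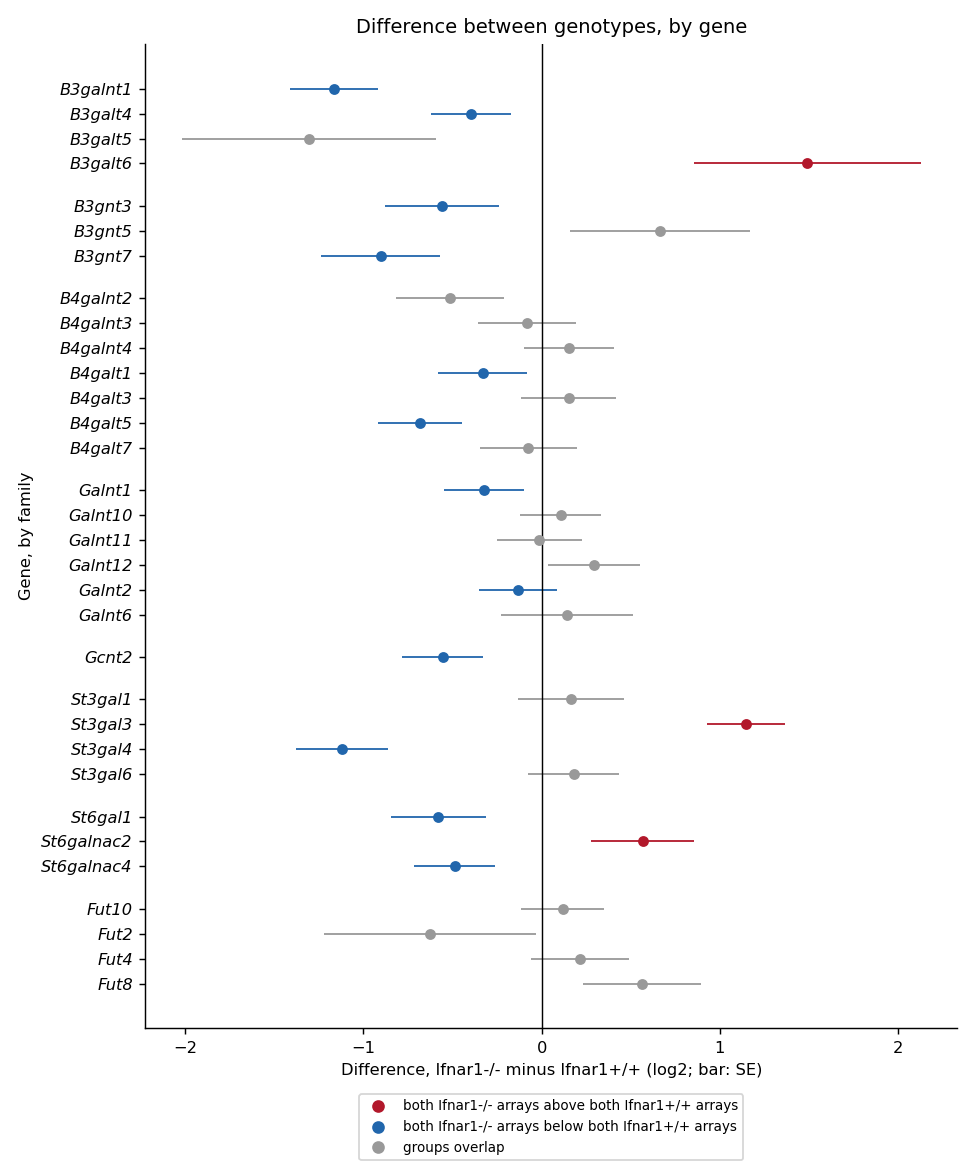
Difference between genotypes (Ifnar1-/- minus Ifnar1+/+, log2, horizontal axis) for each of the 32 genes, with its standard error from limma; colour marks whether the 2 arrays of each group overlap. St3gal3 (1.15) and B3galt6 (1.49) stand highest, and B3galt5 (-1.30), B3galnt1 (-1.16) and St3gal4 (-1.12) lowest.

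The sialyltransferases that add sialic acid to galactose in alpha-2,3 linkage held genes at both ends of the range. St3gal3, whose enzyme caps galactose on N-acetylglucosamine, had a normalized log2 intensity of 7.74 and 7.87 on the Ifnar1-/- arrays, against 6.67 and 6.65 on the Ifnar1+/+ arrays. The arrays of each genotype lay within 0.2 of each other and the groups did not overlap. The difference was 1.15 ± 0.22 (log2, SE, n = 2 per group), or 2.21-fold higher, with an adjusted p of 0.401 in limma. It stayed between 1.09 and 1.21 with each array left out and was 0.64 without background correction. A second St3gal3 probe was near background, being detected on 1 array of each group, and differed by 0.14.

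St3gal4, whose enzyme also sialylates N-acetyllactosamine, lay at 8.88 and 9.34 on the Ifnar1-/- arrays, against 10.15 and 10.31 on the Ifnar1+/+ arrays. Both Ifnar1-/- arrays were lower, the first more so. It differed by -1.12 ± 0.26 (log2, SE), 2.17-fold lower, with an adjusted p of 0.415 in limma, and by -0.89 to -1.35 with each array left out. St3gal6, of similar specificity, lay at 10.91 and 10.47 on the Ifnar1-/- arrays, against 10.41 and 10.61 on the Ifnar1+/+ arrays, so the groups overlapped (0.18 ± 0.26). St3gal1, which caps the core 1 disaccharide of mucins, was close to background at 5.38 and 5.46 on the Ifnar1-/- arrays, against 5.62 and 4.88 on the Ifnar1+/+ arrays. Its difference of 0.16 was -0.20 without Ifnar1+/+ array 2. The 4 genes ran from -1.12 to 1.15 around a family median of 0.17, which lies close to St3gal6 and St3gal1.

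Of the St6gal family, which adds sialic acid in alpha-2,6 linkage, 3 of 8 genes could be compared. St6galnac2, whose enzyme sialylates the N-acetylgalactosamine that starts mucin chains, lay at 11.20 and 11.73 on the Ifnar1-/- arrays, against 11.12 and 10.68 on the Ifnar1+/+ arrays. The groups did not overlap, but Ifnar1-/- array 1 exceeded Ifnar1+/+ array 1 by a small margin. The difference was 0.57 ± 0.29 (log2, SE; adjusted p of 0.557 in limma), and 0.30 without Ifnar1-/- array 2. St6gal1, which caps the antennae of N-glycans, lay at 5.90 and 5.84 on the Ifnar1-/- arrays, against 6.72 and 6.17 on the Ifnar1+/+ arrays. Both Ifnar1-/- arrays were lower, by -0.58 ± 0.27 on average (adjusted p of 0.536), and by -0.30 without Ifnar1+/+ array 1. St6galnac4, which adds a second sialic acid to core 1 chains, lay at 5.07 and 4.93 on the Ifnar1-/- arrays, where it was not well above background, against 5.39 and 5.58 on the Ifnar1+/+ arrays. On the background-corrected scale it was at least 1.15-fold lower (fitted difference -0.49 ± 0.23, adjusted p of 0.539 in limma). The bound holds for that scale only, as the difference was -0.15 without background correction. The other St6galnac4 probes were not kept and differed by 0.01, 0.19 and 0.31. A value given as at least sets the mean of the brighter group against the lowest detected signal on each array of the dimmer one, or with the probe's own signal where that is higher, on the scale of normalized log2 values.

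The polypeptide N-acetylgalactosaminyltransferases start the mucin chain. Of 15 genes with a probe 6 could be compared, with differences of -0.32 to 0.30 and a median of 0.05 (log2). No absolute difference reached 0.5 and 0 of the 6 had an unadjusted p under 0.05 in limma. Over all genes these shares were 20.4% and 9.52%, so that few or none of 6 genes would be counted at the same shares. Galnt1, a widely expressed member, lay at 9.90 and 9.94 on the Ifnar1-/- arrays, against 10.15 and 10.34 on the Ifnar1+/+ arrays. The groups did not overlap, the difference was -0.32 ± 0.22 (SE), and all 4 of its probes had a lower mean (-0.35 to -0.10). Galnt2, likewise widely expressed, lay at 10.76 and 10.75 on the Ifnar1-/- arrays, against 10.94 and 10.84 on the Ifnar1+/+ arrays. It differed by -0.13 ± 0.22, without overlap. Galnt12 differed by 0.30 ± 0.26, Galnt10, which prefers peptides that already carry a sugar, by 0.11 ± 0.23, and Galnt11 by -0.01 ± 0.24. Galnt6 was detected on 1 array of each group and differed by 0.14 ± 0.37.

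Enzymes that extend the chain come next. Of the 3 tested beta-1,3-N-acetylglucosaminyltransferases, B3gnt7, which acts in keratan sulfate synthesis, lay at 5.86 and 6.39 on the Ifnar1-/- arrays, against 6.65 and 7.40 on the Ifnar1+/+ arrays. The groups did not overlap, although the replicate arrays differed by more than the gap between the groups. The difference was -0.90 ± 0.33 (log2, SE), 1.87-fold lower, with an adjusted p of 0.511 in limma. It was -0.53 without Ifnar1+/+ array 2 and -0.41 without background correction. B3gnt3, which extends core 1 chains, lay at 10.49 and 11.32 on the Ifnar1-/- arrays, against 11.39 and 11.54 on the Ifnar1+/+ arrays. Ifnar1-/- array 1 stood below the other arrays: the difference of -0.56 ± 0.32 (adjusted p of 0.589) was -0.15 without that array. B3gnt5, which starts the lacto-series glycolipids, had a higher mean, and is described with the genes whose replicate arrays lay far apart.

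Gcnt2, which makes the branches of the I blood group antigen, was the 1 tested gene of the 3 in its family. It lay at 10.28 and 10.47 on the Ifnar1-/- arrays, against 10.89 and 10.97 on the Ifnar1+/+ arrays, with each group's arrays close together. It differed by -0.56 ± 0.23 (log2, SE), 1.47-fold lower, with an adjusted p of 0.523 in limma and values of -0.65 to -0.46 with each array left out. The other Gcnt2 probes were not kept.

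Among the beta-1,3-galactosyl- and N-acetylgalactosaminyltransferases, 3 of 4 tested genes had a lower mean. B3galnt1, which makes globoside, a glycolipid, lay at 5.06 and 5.48 on the Ifnar1-/- arrays, against 6.43 and 6.43 on the Ifnar1+/+ arrays. It was detected on both Ifnar1+/+ arrays and on 1 of the 2 Ifnar1-/- arrays. The fitted difference was -1.16 ± 0.25 (log2, SE), 2.24-fold lower, with an adjusted p of 0.401 in limma. It was -0.40 without background correction and -0.73 with an offset of 50. The other B3galnt1 probe was detected on no array and differed by 0.07. B3galt4, which makes gangliosides, lay at 7.13 and 7.33 on the Ifnar1-/- arrays, against 7.61 and 7.65 on the Ifnar1+/+ arrays. It differed by -0.40 ± 0.23 (adjusted p of 0.589) without overlap, and its second probe by -0.05.

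Of the beta-1,4 transferases 7 of 9 genes could be compared, with a median difference of -0.08 (log2). B4galt5, a lactosylceramide synthase, lay at 4.95 and 4.79 on the Ifnar1-/- arrays, where it was not well above background, against 5.42 and 5.69 on the Ifnar1+/+ arrays. On the background-corrected scale it was at least 1.21-fold lower, with a fitted difference of -0.68 ± 0.24 (SE, adjusted p of 0.499 in limma). That bound too holds for that scale only, as the difference was -0.23 without background correction. B4galnt2, which makes the Sda antigen of the mouse gut, lay at 11.89 and 12.56 on the Ifnar1-/- arrays, against 12.55 and 12.93 on the Ifnar1+/+ arrays. The groups overlapped narrowly, and the difference of -0.51 ± 0.30 was -0.18 without Ifnar1-/- array 1. B4galt1, which adds galactose to make N-acetyllactosamine, lay at 8.82 and 8.59 on the Ifnar1-/- arrays, against 8.84 and 9.22 on the Ifnar1+/+ arrays (-0.33 ± 0.25). B4galt3, of similar activity, had probes that disagreed: the brighter differed by 0.15 ± 0.27 and the dimmer by -0.51. The remaining members, B4galnt4, B4galnt3 and B4galt7, differed by 0.15, -0.08 and -0.07, each with overlap.

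The groups overlapped for all 4 tested fucosyltransferase genes, against 4781 of all 8442 genes tested. The median difference of the 4 was 0.17 (log2). Fut8, which fucosylates the core of N-glycans, lay at 9.46 and 8.89 on the Ifnar1-/- arrays, against 8.27 and 8.96 on the Ifnar1+/+ arrays. It differed by 0.56 ± 0.33 (SE), and its second probe by 0.28. Fut4, which makes the Lewis x structure, differed by 0.22 ± 0.27, and Fut10 by 0.12 ± 0.23.

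For 4 genes the replicate arrays lay more than 1 log2 unit apart, 2 in each group, or 6.25% of the 32 in each case. B3galt5, which makes type 1 chains, lay at 5.39 and 5.13 on the Ifnar1-/- arrays, against 5.35 and 7.78 on the Ifnar1+/+ arrays. Its high signal was on Ifnar1+/+ array 2 alone, and the groups overlapped. The difference of -1.30 ± 0.71 (log2, SE; adjusted p of 0.577 in limma) was -0.09 without Ifnar1+/+ array 2. Without Ifnar1+/+ array 1 it was -2.52, and B3galt5 then passed the test with an adjusted p of 0.0357. Markers of both gut regions had their highest sum on Ifnar1+/+ array 2. The colon markers' summed background-corrected signal was 1412 and 2322 on the Ifnar1-/- arrays, against 2389 and 3233 on the Ifnar1+/+ arrays. The small intestine markers summed to 127015 and 147102 on the Ifnar1-/- arrays, against 167718 and 177824 on the Ifnar1+/+ arrays. Bright genes weigh most in these sums. Reg3b, of the small intestine list, lay at 13.74 and 11.88, against 14.52 and 15.82. Ceacam20, of the colon list, lay at 8.67 and 10.78, against 10.86 and 11.18. Relative to the Ifnar1+/+ mean, the median small intestine marker was at 0.04 and -0.04 on the Ifnar1+/+ arrays. The median colon marker was at -0.26 and 0.26 there. Single colon markers differed in order: Car4, a carbonic anhydrase gene, lay at 6.80 and 5.78 on the Ifnar1-/- arrays, against 6.74 and 8.55 on the Ifnar1+/+ arrays, whereas Aqp4, a water channel gene, lay at 9.18 and 8.08, against 7.21 and 7.94. The part of gut region in the B3galt5 result was not tested.

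B3galt6, which adds a galactose of the proteoglycan linker, lay at 7.35 and 7.81 on the Ifnar1-/- arrays, against 5.03 and 7.14 on the Ifnar1+/+ arrays. Ifnar1+/+ array 1, where the probe was not detected (detection p of 0.128), stood apart. The difference of 1.49 ± 0.64 (log2, SE; adjusted p of 0.524 in limma) was 0.44 without that array. Without Ifnar1+/+ array 2 the only Ifnar1+/+ signal left is the one not detected. On the background-corrected scale B3galt6 was then at least 4.94-fold higher (fitted difference 2.54). That bound holds for that scale only, as the difference over all 4 arrays was 0.66 without background correction.

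B3gnt5 lay at 7.43 and 5.80 on the Ifnar1-/- arrays, against 5.82 and 6.08 on the Ifnar1+/+ arrays, so that 1 array carried its higher mean. Its difference of 0.67 ± 0.50 was -0.15 without Ifnar1-/- array 1. Fut2, which makes the H antigen on gut epithelium, lay at 8.27 and 6.47 on the Ifnar1-/- arrays, against 7.57 and 8.42 on the Ifnar1+/+ arrays. Ifnar1-/- array 2 was low, and the difference of -0.63 ± 0.59 was 0.28 without it. Goblet cell markers, like B3gnt5, were highest on Ifnar1-/- array 1 and lowest on Ifnar1-/- array 2, with a summed signal of 66511 and 30304 on the Ifnar1-/- arrays, against 49288 and 44709.9 on the Ifnar1+/+ arrays. Bright genes weigh most in this sum too. Relative to the Ifnar1+/+ mean, the median goblet cell marker was at 0.64 and -0.46 on the Ifnar1-/- arrays, against 0.07 and -0.07. Single markers differed in order: Clca1 lay at 9.87 and 9.67, against 11.04 and 11.18. Of 16 tested goblet cell genes 7 had a higher and 9 a lower mean (median -0.03). Of the 17 goblet cell genes with a probe, Atoh1 was detected on no array. The part of goblet cells in these values was not tested.

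**Figure D3:**
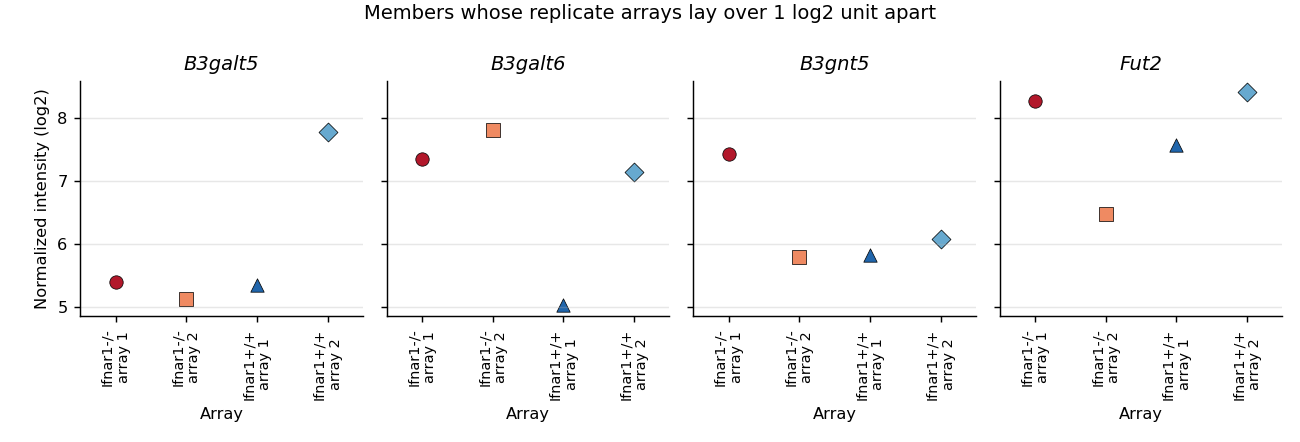
Normalized intensity (log2, vertical axis) on each array for the 4 genes whose replicate arrays lay more than 1 log2 unit apart; each point is 1 array. B3galt5 is high on Ifnar1+/+ array 2 (7.78), B3galt6 low on Ifnar1+/+ array 1 (5.03), B3gnt5 high on Ifnar1-/- array 1 (7.43) and Fut2 low on Ifnar1-/- array 2 (6.47).

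Of the 68 genes 36 had no probe that passed the filter, with raw signals of 105.7 to 172.9, and 30 of them were detected on no array. All 6 alpha-2,8-sialyltransferase genes (St8sia1 to St8sia6), whose enzymes build sialic acid chains, were among them, as were Fut1, Fut7, Fut9 and Fut11. Several enzymes of mucin synthesis were also not measured well enough to compare: B3gnt6, the core 3 synthase (125.9 to 167.9), Galnt3 (124.7 to 165.6), Galnt4, Galnt7, Gcnt1, which makes core 2 branches (121.6 to 158.1), and St6galnac1, the sialyl-Tn synthase (111.7 to 124.9). B3gnt6, Galnt3, Gcnt1, St6galnac6, St8sia4 and Fut7 were detected on at most 1 array per probe. The others without a comparison were B3galnt2, B3galt1, B3galt2, B3gnt2, B3gnt8, B4galt2, B4galt4, Galnt9, Galnt13, Galnt15, Galnt18, Galntl5, Galntl6, Gcnt7, St3gal2, St3gal5, St6gal2, St6galnac3 and St6galnac5. Of 79 genes of these names in the RefSeq table, 11 had no probe here and were not analysed here, among them Gcnt3, Galnt5 and B4galt6.

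Where several probes of a gene were kept, they did not always move alike. Of 7 such genes 5 had probes of 1 direction and 2, B4galt3 and Galnt10, had probes of opposite direction. With the mean of the probes in place of the brightest, B4galt3 was at -0.18 and Galnt10 at -0.01. St3gal3, whose probes had 1 direction but unlike sizes, was then at 0.64 in place of 1.15.

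Array order was compared with that of cell type markers. For 7 of the 32 genes (B3galnt1, B3galt4, B3gnt3, B3gnt7, Galnt1, Gcnt2 and St3gal4) Ifnar1-/- array 1 was lowest, array 2 next and both Ifnar1+/+ arrays higher. This was 21.9% of the 32, against 13.4% of all genes tested. The mirror order, with Ifnar1-/- array 1 highest, array 2 next and both Ifnar1+/+ arrays lower, was seen for 0 of the 32, against 15.2% of all genes. Absorptive enterocyte markers had the first of these orders, with Ifnar1-/- array 1 lowest. Their summed signal was 80209 and 139949 on the Ifnar1-/- arrays, against 181814.5 and 166907 on the Ifnar1+/+ arrays. Of 19 tested enterocyte genes 18 had a lower mean (median -0.87), and Fabp1, Fabp2, Maf, Slc10a2 and Slc2a5 were detected on no array. T cell and intraepithelial lymphocyte markers summed to 377 and 661, against 1445 and 1252, with 10 of 10 tested genes lower (median -1.30) and Cd2, Cd5, Cd69, Cd7, Cd8a, Gzma, Gzmb, Lat, Ptprc and Trat1 detected on no array. Paneth cell markers summed to 182261 and 98994 on the Ifnar1-/- arrays, against 81409 and 69419 on the Ifnar1+/+ arrays, with 10 of 11 genes higher (median 0.71). Stem and proliferating crypt markers summed to 27157 and 21699, against 16424 and 17465, with 18 of 19 genes higher (median 0.59). Interferon-stimulated genes were lower in 27 of 28 (median -1.08). The part of cell makeup in the glycosyltransferase differences was not tested.

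**Figure D4:**
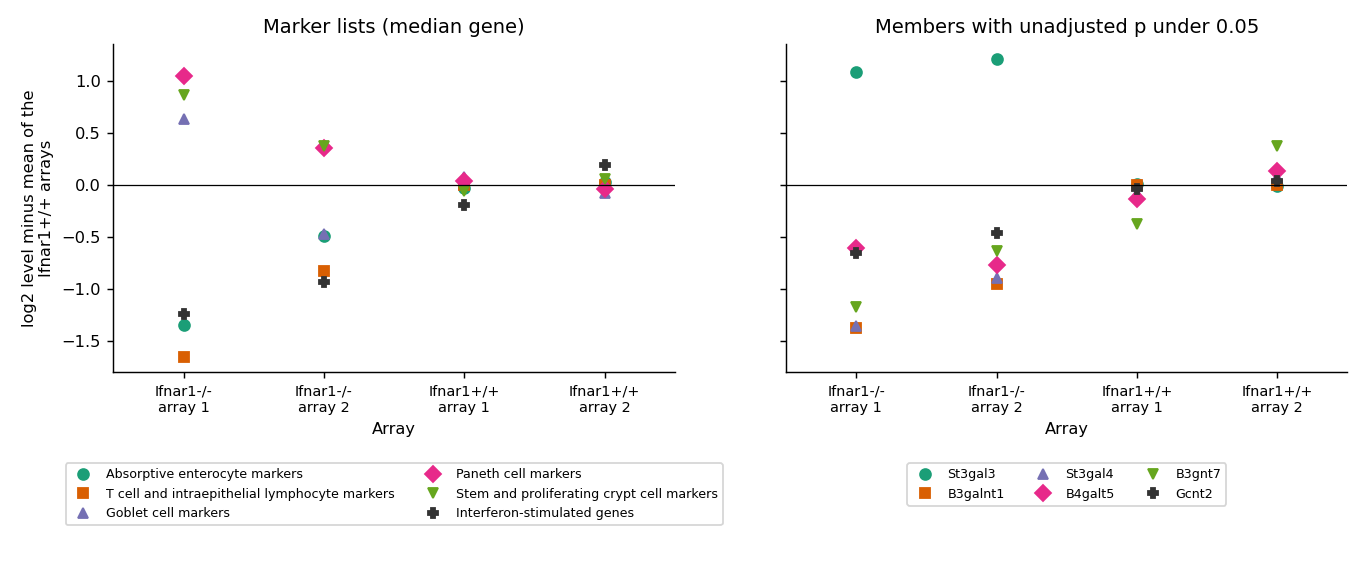
Left, the median gene of 6 marker lists on each array; right, the 6 glycosyltransferase genes with an unadjusted p under 0.05; both as log2 level minus the mean of the Ifnar1+/+ arrays. On the Ifnar1-/- arrays the 5 lower genes lie below 0, as do the enterocyte, T cell and interferon-stimulated lists. St3gal3 and the Paneth and proliferating crypt lists lie above 0 there. The Paneth and crypt lists are higher on Ifnar1-/- array 1 than on array 2 (medians of 1.05 and 0.36 for Paneth markers). St3gal3 is higher on array 2 (intensities of 7.74 and 7.87). The enterocyte, T cell and interferon-stimulated lists are lower on array 1. The goblet cell list lies at 0.64 and -0.46.

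Other genes of glycan synthesis were described in the same way. limma called 0 genes of each list over all genes tested (0% of all genes). Of 21 genes that make sugar nucleotides or carry them into the Golgi, 13 had a higher and 8 a lower mean, with a median of 0.09 (log2). Slc35a1, the transporter that supplies CMP-sialic acid to the sialyltransferases, lay at 10.24 and 9.53 on the Ifnar1-/- arrays, against 8.73 and 9.46 on the Ifnar1+/+ arrays (0.78 ± 0.36, SE). Gnpda1, which converts glucosamine phosphate to fructose phosphate, lay at 8.09 and 8.50, against 9.45 and 9.25 (-1.06 ± 0.25). Of 7 other enzymes of mucin-type chains, 4 had a lower mean and the median was -0.10, with Gal3st2, a galactose sulfotransferase, at -0.36 ± 0.25 and C1galt1c1, the chaperone of the core 1 enzyme, at 0.23 ± 0.28. Of 11 N-glycan processing genes, 6 had a lower mean and the median was -0.14, with the mannosidase gene Man1a2 at 0.73 ± 0.22. Of the 6 tested mucins and mucus proteins 5 had a lower mean, the median being -0.22. Among them Clca1, a goblet cell mucus protein, lay at 9.87 and 9.67 on the Ifnar1-/- arrays, against 11.04 and 11.18 on the Ifnar1+/+ arrays (-1.34 ± 0.23), while Muc13, a membrane mucin, differed by -0.26 ± 0.39. Of 11 sialidase, fucosidase and galectin genes 6 had a lower mean, with Lgals1 at -1.34 ± 0.48 and Lgals3 at -0.45 ± 0.25. Lgals1 lay at 6.27 and 5.67 on the Ifnar1-/- arrays, against 8.02 and 6.60 on the Ifnar1+/+ arrays, highest on Ifnar1+/+ array 1. Fibroblast, smooth muscle and endothelial markers also stood high on that array, with a summed signal of 1055 and 687 on the Ifnar1-/- arrays, against 3814 and 1030 on the Ifnar1+/+ arrays. Of 8 tested genes of that list 6 had a lower mean (median -1.26), and Cdh5, Emcn, Pecam1 and Tagln were detected on no array. The part of these cells in the Lgals1 value was not tested.

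The tested genes were spread over 16 chromosomes. B3galt5, B3gnt5, St3gal6 and St6gal1 lie on chromosome 16, which also holds Ifnar1, and differed by -1.30, 0.67, 0.18 and -0.58. RefSeq promoter windows (GRCm38.p6, 250 bases before to 50 after a start site) are shown for the 3 genes with the smallest p, because they carry the clearest differences, and for the 1 window of B3galt5 with a match to an interferon-type motif. They are St3gal3 (chr4:118134897-118135196, minus strand), St3gal4 (chr9:35116815-35117114, minus strand), B3galnt1 (chr3:69598911-69599210, minus strand) and B3galt5 (chr16:96235551-96235850, plus strand). Capitals mark a motif match, and windows without one are in lower case.
St3gal3: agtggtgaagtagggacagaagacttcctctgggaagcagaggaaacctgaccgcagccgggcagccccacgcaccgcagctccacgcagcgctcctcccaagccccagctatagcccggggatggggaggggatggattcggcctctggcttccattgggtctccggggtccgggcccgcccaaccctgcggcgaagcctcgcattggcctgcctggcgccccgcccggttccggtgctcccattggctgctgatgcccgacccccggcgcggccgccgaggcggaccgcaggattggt
St3gal4: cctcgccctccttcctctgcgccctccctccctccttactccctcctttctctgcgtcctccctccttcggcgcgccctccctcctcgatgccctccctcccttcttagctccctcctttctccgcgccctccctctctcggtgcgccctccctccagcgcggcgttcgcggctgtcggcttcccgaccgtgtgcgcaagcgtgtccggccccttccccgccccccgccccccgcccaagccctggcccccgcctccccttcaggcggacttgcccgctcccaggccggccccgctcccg
B3galnt1: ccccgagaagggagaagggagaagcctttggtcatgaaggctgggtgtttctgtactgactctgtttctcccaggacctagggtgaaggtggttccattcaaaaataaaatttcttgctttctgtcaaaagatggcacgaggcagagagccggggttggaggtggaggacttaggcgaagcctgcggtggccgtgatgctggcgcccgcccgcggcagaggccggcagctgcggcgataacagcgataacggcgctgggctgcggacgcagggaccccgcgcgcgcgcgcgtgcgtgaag
B3galt5: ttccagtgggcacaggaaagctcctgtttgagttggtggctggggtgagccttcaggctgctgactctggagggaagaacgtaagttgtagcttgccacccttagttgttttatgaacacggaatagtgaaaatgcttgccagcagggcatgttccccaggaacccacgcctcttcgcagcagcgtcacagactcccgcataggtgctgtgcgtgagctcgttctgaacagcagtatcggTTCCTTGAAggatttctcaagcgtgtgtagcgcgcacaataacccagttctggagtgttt

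Windows were found for 25 of the 32 tested genes, 37 in all, and searched on both strands. The core of the interferon-stimulated response element, a pair of GAAA separated by any 2 bases, was in 0 of the 37, against 3.44% of all 32851 windows and 15 of 31 windows (48.4%) of the interferon-stimulated genes listed for comparison. The core of the gamma-activated site, TTCNNNGAA, was in 3 of the 37 (8.11%, against 8.3% of all windows), in B3galt5, B4galt1 and Gcnt2. The core of the site bound by TCF and LEF factors, which act with beta-catenin, CTTTGAT, was in 1 of the 37 (2.7%, against 3.73%), in Fut8. The letters of the first and second motif can overlap. A match is no evidence of binding, and the absence of one says only that these letters are not in the window.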

How the data were processed

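RNA was hybridized to 4 arrays. The deposited raw intensity is the mean bead signal per probe, in a table without background subtraction; the submitters' processing notes name GenomeStudio 1.8. A deposited detection p-value sets each signal against negative controls. The deposited normalized intensity is linear, and no source here states its scaling.

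Raw intensities were corrected for background from the detection p-values, quantile normalized and log2 transformed by neqc (limma 3.58.1, R 4.3.3; offset 16, which shrinks differences of dim probes). A probe was kept if its detection p was below 0.05 on 2 or more arrays (11884; 41 of the 102 of glycosyltransferases), and the brightest kept probe stood for a gene. Symbols came from the platform annotation; all 68 genes matched RefSeq by gene ID. lmFit and eBayes were fitted to 8442 genes without covariates (2 residual degrees of freedom, prior 4.54), with two-sided p-values adjusted by Benjamini-Hochberg across them; the fit was tested on simulated data. The number of arrays limits the precision. Full values were given for the 12 members with the smallest p and for members without overlap that differed by at least 0.5; other tested members and the top 3 genes of other lists appear more briefly. Summed signals are linear, background corrected, 1 probe per gene. The labels do not say whether replicate numbers pair the samples, and the main fit did not pair them. The members and lists were chosen with earlier results of these data known. Figures used matplotlib 3.10.9 in Python 3.11.15.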

Additional observations from a re-analysis of the deposited data

How the results depend on the processing

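The settings tried were no background correction, a neqc offset of 50, the deposited normalized values, median scaling, no filter, a strict filter (below 0.01 on all 4 arrays), averaging a gene's probes, every kept probe, an intensity trend, the replicate block and each array left out. Under the first 10 no gene passed, and of the 32 glycosyltransferase genes 20 kept their direction under all alternatives run. Leaving out an array called 0 to 14 genes in all and 0 to 1 glycosyltransferase: B3galt5 (-2.52) without Ifnar1+/+ array 1, where 5 genes passed, and B3galt6 (fitted 2.54, at least 4.94-fold) without Ifnar1+/+ array 2, where 14 did; the lone array left is assumed to vary like the other group. The labels do not say whether replicate numbers pair the samples. The correlation of deviations (-0.05 over 8442 genes) cannot decide it with 2 arrays per group. With the replicate block 0 genes passed and 774 had an unadjusted p under 0.05 in limma, against 804 without it.

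Family medians moved by more than the spread between replicates as follows. The B3gal median (-0.78) was -0.32 without background correction and with the deposited values, -0.18 with no filter, and -0.40 with the strict filter and with every probe. The St6gal median (-0.49) was -0.15 without background correction and with the deposited values, -0.26 with an offset of 50, -0.03 with no filter and 0.57 with the strict filter, which left 1 gene. With no filter the B3gnt median (-0.56) was -0.17 and the Gcnt median (-0.56) -0.11, and with every probe the Galnt median (0.05) was -0.13. With an array left out the ranges were -0.16 to -0.08 for all 32 genes, -0.84 to -0.23 for B3gal, -0.97 to -0.15 for B3gnt, -0.30 to -0.14 for B4gal, -0.16 to 0.19 for Galnt and -0.56 to -0.30 for St6gal.

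With all 4 arrays in use, directions turned for small differences: B4galt7 (0.03) and Galnt11 (0.09) with median scaling, B4galt3 (-0.18) and Galnt10 (-0.01) with the mean of probes. Leaving out an array also turned larger differences, those of B3gnt5 (0.67) and Fut2 (-0.63). With an array left out, the lowest and highest values were -0.15 and 1.48 for B3gnt5, -0.30 and 0.15 for B4galt7, -0.19 and 0.16 for Galnt11, -0.04 and 0.40 for St3gal6, -0.31 and 0.14 for B4galnt3, -0.07 and 0.38 for B4galnt4, -0.08 and 0.38 for B4galt3, -1.53 and 0.28 for Fut2, -0.33 and 0.62 for Galnt6, -0.03 and 0.46 for Fut4 and -0.20 and 0.53 for St3gal1. The cause was not tested, apart from the genes or arrays that an alternative removes. Signals near background limit the 8 tested genes not detected on all 4 arrays.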
